A study of Mus musculus with 7 samples.

Results

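The 284 regions described here are H3K27me3 peaks that were called in epidermal progenitor cells without Ring1a and Ring1b, had no counterpart in control cells, and lay at or in protein-coding genes. A peak of the double-knockout (2KO) list entered when it shared 0 bp with every peak of the control list and overlapped a protein-coding gene body extended by 1 kb on both sides. Of 2340 2KO peaks, 548 had no control counterpart (23.4% of the list). The 284 made up 51.8% of these 548 (47.6 to 56.0). The other 264 lay between genes. Among the 1718 2KO peaks at or in genes, 284 (16.5%) were without a control counterpart and 1434 overlapped a control peak. The regions were thus chosen by 2 measured properties, the absence of an overlapping control peak and a position at a gene, and neither is a result here. Intervals are 95% Wilson intervals for counting error only.

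Chromatin immunoprecipitation for histone H3 trimethylated at lysine 27 was sequenced from cells of the back skin of newborn mice (postnatal day 0), sorted as EpCAM positive, Sca1 positive and high in alpha6-integrin. Control mice were compared with Ring1a/b 2KO mice, and each genotype had 2 immunoprecipitation libraries and 1 deposited peak list. Libraries of Eed cKO cells and the input libraries were not analysed here. The driver of the deletions, the alleles that control animals carried and the pooling of animals were not stated in the labels used. The titles of both 2KO libraries name H3K27me1, while their antibody label and the list name H3K27me3, which was the reading used. A list holds the position of each peak and no height, score or depth. A single list for each genotype leaves no replicate spread and no test between genotypes, and a region without a peak may still carry the mark below the calling limit. Neither Ring1, Rnf2 (the gene of Ring1b) nor Eed carried a peak in control or 2KO cells, so nothing in these files checks the genotype. All 8 marker genes of the sorted cells, among them Krt5, Krt14, Trp63 and Epcam, were free of peaks in both lists.

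Polycomb repressive complex 2 writes H3K27me3, a mark of silenced genes. Polycomb repressive complex 1 carries Ring1a or Ring1b, which ubiquitinate histone H2A and compact chromatin, and the complexes recruit each other at many targets. In mammals the classical sites of both are CpG-rich starts of developmental genes, and in epidermal progenitors these include genes of other lineages.

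Promoter sequence was examined because 79 of the 284 peaks covered a gene start, and CpG density there is the sequence feature most closely tied to Polycomb binding. The starts and the sequences came from RefSeq (build GRCm38.p6, the same assembly as mm10), which held an entry for 17274 of 21631 protein-coding genes (79.9%). A start was called CpG-rich when the 300 bases around it (250 before and 50 after) had a ratio of observed to expected CpG of at least 0.6 and a GC content of at least 50%. The sequences printed are the 250 bases before the start, 5′ to 3′ on the gene's strand, with each CpG in capitals. The CpG-rich examples belong to Actl6b (chr5:137553296-137553545, plus strand), which encodes a neuronal subunit of the BAF chromatin remodelling complex, Otud7a (chr7:63444522-63444771, plus strand), a deubiquitinase gene, Tubb4a (chr17:57087601-57087850, minus strand), a beta-tubulin gene of the nervous system, and Rgs4 (chr1:169747643-169747892, minus strand), a regulator of G protein signalling. They lay under the 4 widest 2KO-only peaks at CpG-rich starts, counting starts within 1 kb of the gene's 5′ end.
Actl6b: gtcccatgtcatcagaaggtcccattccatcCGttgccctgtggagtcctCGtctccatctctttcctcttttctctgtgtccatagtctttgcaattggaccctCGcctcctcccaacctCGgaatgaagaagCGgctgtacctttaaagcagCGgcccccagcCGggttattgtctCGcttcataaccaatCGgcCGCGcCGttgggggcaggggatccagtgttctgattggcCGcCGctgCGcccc
Otud7a: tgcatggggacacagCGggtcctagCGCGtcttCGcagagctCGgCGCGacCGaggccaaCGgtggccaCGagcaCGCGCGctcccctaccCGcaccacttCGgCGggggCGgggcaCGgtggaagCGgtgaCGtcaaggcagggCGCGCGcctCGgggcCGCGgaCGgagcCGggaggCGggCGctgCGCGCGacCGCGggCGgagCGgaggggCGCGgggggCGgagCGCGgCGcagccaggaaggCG
Tubb4a: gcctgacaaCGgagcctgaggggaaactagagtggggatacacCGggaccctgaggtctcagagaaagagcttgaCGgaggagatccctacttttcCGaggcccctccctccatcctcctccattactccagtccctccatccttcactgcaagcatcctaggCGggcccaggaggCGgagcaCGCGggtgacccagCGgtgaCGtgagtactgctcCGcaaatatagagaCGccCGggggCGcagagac
Rgs4: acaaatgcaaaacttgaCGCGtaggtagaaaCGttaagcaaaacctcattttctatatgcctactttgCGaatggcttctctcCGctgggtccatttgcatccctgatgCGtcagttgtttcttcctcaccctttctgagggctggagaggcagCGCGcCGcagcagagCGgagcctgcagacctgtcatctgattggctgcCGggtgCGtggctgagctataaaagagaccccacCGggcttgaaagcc
These 250 bases hold 15, 44, 14 and 13 CpGs, in the order printed. The other examples are the starts of Nr0b2 (chr4:133553126-133553375, plus strand), an orphan nuclear receptor gene of metabolism, Cutal (chr2:34874146-34874395, plus strand), a CutA-like gene, Tmem39a (chr16:38558448-38558697, plus strand), a transmembrane protein gene, and Trim10 (chr17:36869324-36869573, plus strand), a tripartite motif gene of red blood cell maturation. They lay under wide peaks too, of 7148 to 9427 bp, and hold few CpGs.
Nr0b2: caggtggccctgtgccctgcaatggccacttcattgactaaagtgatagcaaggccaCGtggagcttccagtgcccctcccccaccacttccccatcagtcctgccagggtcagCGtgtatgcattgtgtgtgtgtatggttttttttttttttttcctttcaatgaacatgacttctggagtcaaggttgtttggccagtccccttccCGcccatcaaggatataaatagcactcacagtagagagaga
Cutal: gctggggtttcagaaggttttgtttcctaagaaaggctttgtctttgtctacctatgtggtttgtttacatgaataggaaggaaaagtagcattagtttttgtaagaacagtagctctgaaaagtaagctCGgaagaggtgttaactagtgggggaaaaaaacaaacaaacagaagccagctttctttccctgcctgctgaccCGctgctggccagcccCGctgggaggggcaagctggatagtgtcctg
Tmem39a: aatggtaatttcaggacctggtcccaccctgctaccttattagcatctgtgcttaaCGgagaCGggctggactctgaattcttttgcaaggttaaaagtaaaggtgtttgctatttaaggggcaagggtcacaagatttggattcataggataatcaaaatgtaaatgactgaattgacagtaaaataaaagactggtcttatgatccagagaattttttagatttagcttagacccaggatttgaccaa
Trim10: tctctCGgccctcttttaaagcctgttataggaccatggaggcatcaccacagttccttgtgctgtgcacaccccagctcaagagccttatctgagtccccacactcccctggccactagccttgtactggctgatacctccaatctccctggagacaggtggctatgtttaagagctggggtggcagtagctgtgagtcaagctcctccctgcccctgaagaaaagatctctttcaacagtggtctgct
Here the 250 bases hold 3, 3, 2 and 1 CpGs. The peaks therefore reached both kinds of start.

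A further sequence set belongs to the only peak among the 284 that met microRNA genes. It was 3238 bp wide (chr7:3217390-3220627), entered through the 3′ end of Nlrp12, an inflammasome-related gene, and lay 109.2 kb from the nearest control peak. It covered 7 microRNA genes whole: Mir290a, Mir290b, Mir291a, Mir292, Mir292b, Mir291b and Mir293. These belong to the miR-290 cluster, which is best known from embryonic stem cells, where its members are abundant and promote the cell cycle. Mir294 began 13 bp and Mir295 145 bp beyond the peak. The mature sequences that share a seed (bases 2 to 8, in capitals) are given together, as RefSeq lists them. The first 3 share the seed CUCAAAC and the next 2 the seed AUCAAAG.
miR-290a-5p: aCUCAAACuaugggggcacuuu
miR-292a-5p: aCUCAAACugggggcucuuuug
miR-293-5p: aCUCAAACugugugacauuuug
miR-291a-5p: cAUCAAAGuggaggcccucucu
miR-291b-5p: gAUCAAAGuggaggcccucucc
The 3 following arms have seeds that are alike except for the last base, and they come from the other arm of the same hairpins.
miR-290a-3p: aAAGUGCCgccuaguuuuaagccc
miR-291a-3p: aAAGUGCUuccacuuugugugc
miR-291b-3p: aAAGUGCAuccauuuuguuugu
No expression was measured, so the peak is a statement about chromatin at the cluster only.

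The overlap with control peaks chose the regions, and the values on both sides of the limits are given as a description. At genes, shared 2KO peaks had a median of 89.3% of their length under control peaks (lower quartile 71.4%), while 85 of 1434 (5.93%) had less than 50% and 1 had less than 10%. Small overlaps just outside the rule were 630 bp at Zfp105, 658 bp at Cdk8, 870 bp at Ltbp4 and 913 bp at Chrna5. Inside it, the peaks nearest to a control peak lay 815 bp away at Ttll8 and Mlc1, 830 bp at Nanos2 and Mypop, 874 bp at Jak3, 1081 bp at Ebf2 and 1093 bp at Gnao1. On the side of the gene limit, the farthest peaks still admitted lay 958 bp from Tmem41b, 942 bp from Pgghg, 936 bp from Cnot10, 848 bp from Zfp946 and 816 bp from Rpl5. The nearest ones left out lay 1005 bp from Lhx5, 1032 bp from Armc8, 1034 bp from Smu1, 1047 bp from Olfr222 and 1050 bp from Spata21. Of the 284, 250 (88.0%) overlapped a gene body itself and 34 (12.0%) lay only in the 1 kb margin.

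The 284 peaks covered 1.18 Mb. Their widths ran from 776 to 11771 bp, with a median of 4052.5 bp (3794 to 4238) and quartiles of 2886 and 5159 bp. The 2KO-only peaks between genes had a median of 3392.5 bp and the shared peaks at genes one of 6552 bp, with a longest of 52690 bp. Control-only peaks at or in genes, the mirror class of 1306 regions, had a median of 3991 bp. A wide peak meets a control peak more easily, so the narrowness against shared peaks is partly set by the rule. The widest peak, 11771 bp at Zbtb40, a zinc finger gene, lay wholly outside that gene, 464 bp from its body. Pgghg, a glucosidase gene, likewise had its 8637 bp peak outside the gene body, whereas the 8524 bp peak at Pkd2l1, a polycystin channel gene of sour-sensing and spinal fluid-contacting cells, lay inside. The narrowest were 776 bp in Aida, 808 bp in Tasor2 and 866 bp in Prkg1, all named after their values were seen. Those of Aida and Prkg1 lay inside the gene body and that of Tasor2 lay 715 bp outside it.

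Among the 25 widest peaks, position at the gene varied. Over a start lay those of Actl6b (chr5:137551626-137561141, 9516 bp), Nr0b2 (chr4:133549106-133558532, 9427 bp), Cutal (chr2:34872243-34881667, 9425 bp), Tmem39a (chr16:38551745-38561029, 9285 bp) and Otud7a (chr7:63440846-63449643, 8798 bp). Further down the order, a peak of 7148 bp (chr17:36862849-36869996) covered the starts of both Trim10 and Trim15. One of 6929 bp (chr17:55948370-55955298) covered those of Ebi3, which encodes a cytokine subunit, and Zfp119b, a zinc finger gene. At the 3′ end lay the peaks of Septin14 (chr5:129677939-129686474, 8536 bp), 1810024B03Rik (chr2:127186428-127194779, 8352 bp) and Gm34066 (chr1:54441180-54448557, 7378 bp). Mylk2, the myosin light chain kinase gene of skeletal muscle, had a peak of 7442 bp (chr2:152909495-152916936) at an end whose strand was not known. Inside the body lay those of Cdh22, a cadherin gene of the brain (chr2:165130970-165137972, 7003 bp), Ccdc174 (chr6:91868039-91874860, 6822 bp), Mdh1b (chr1:63721615-63728407, 6793 bp) and Wee2 (chr6:40457555-40464248, 6694 bp). Their distances to the nearest control peak ran from 6.17 kb at Pgghg to 1102 kb at Cutal.

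The peaks lay inside gene bodies more often than the other peaks at genes did. Away from both ends by more than 1 kb were 125 of the 284 (44.0%, 38.4 to 49.8), compared with 271 of 1434 shared peaks (18.9%, 17.0 to 21.0) and 431 of 1306 control-only peaks (33.0%, 30.5 to 35.6). Narrow peaks reach an end less often, so the shares were also taken within bands of width. Among peaks of 2 to 4 kb the share was 48.1% (38.8 to 57.5) for 2KO-only, 29.1% (23.6 to 35.2) for shared and 34.7% (30.6 to 39.1) for control-only peaks. Among peaks of 4 to 8 kb it was 36.6% (28.9 to 45.0), 20.5% (17.6 to 23.8) and 26.1% (22.4 to 30.2). The intervals of 2KO-only and shared peaks did not meet in either band, while those of 2KO-only and control-only peaks met by a narrow margin. Examples deep in genes were Spatc1, a centrosome gene of sperm (7928 bp) and Alox15, a lipoxygenase gene (7922 bp).

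**Figure D1:**
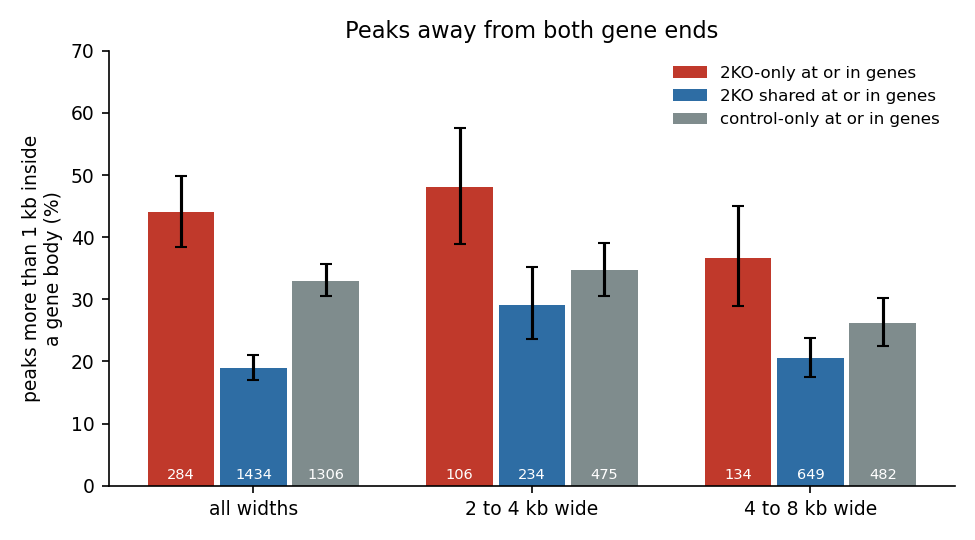
Share of peaks that lay more than 1 kb inside a gene body (y axis, percent), for 2KO-only, shared and control-only peaks at or in genes, over all widths and in 2 bands of width. Bars carry 95% Wilson intervals and the number of peaks at their base; the 2KO-only bar was the highest in each group, at 44.0%, 48.1% and 36.6%.

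With strand from RefSeq, 79 of the 284 covered a gene start (27.8%, 22.9 to 33.3), 35 lay within 1 kb of one (12.3%), 24 were at a 3′ end (8.45%), 30 were at an end of a gene without a strand entry (10.6%), 7 were at an annotated 5′ end away from the listed start (2.46%) and 109 lay inside a body (38.4%). The last number is lower than the 125 above because a start can lie inside a gene. Shared peaks covered a start in 706 of 1434 cases (49.2%) and control-only peaks in 526 of 1306 (40.3%). In the band of 2 to 4 kb a start was covered by 28.3% of 2KO-only (20.6 to 37.5), 31.6% of shared (26.0 to 37.8) and 36.4% of control-only peaks. In the band of 4 to 8 kb the shares were 28.4% (21.4 to 36.5), 51.0% (47.2 to 54.8) and 50.0%. The intervals of 2KO-only and shared peaks met in the narrower band and did not meet in the wider one, where the 2KO-only share was the lower.

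Peaks over a start extended a median of 1.84 kb before it and 2.21 kb into the transcribed side, and 46 of 79 had more length after the start than before it (58.2%, 47.2 to 68.5). Actl6b had 1.92 kb before and 7.60 kb after its start, and Htr1a, a serotonin receptor gene, 0.897 and 5.71 kb. Septin14, a septin gene of the testis, had 0.397 kb before and 5.98 kb after. The opposite shape was seen at Tmem39a, with 6.95 kb before and 2.33 kb after the start, and at Trim10, with 6.73 and 0.423 kb. In 16 of the 79 the start lay more than 1 kb inside the gene as annotated, as at Smtnl1, a smoothelin-like gene of muscle (4195 bp inside), and Tph1 (5160 bp inside). A gene was covered whole by a peak in 8 cases: Nr0b2, Htr1a, Olfr1366, Nanos2, H3f4, Ifna7, Hsd17b1 and Gpr6.

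**Figure D2:**
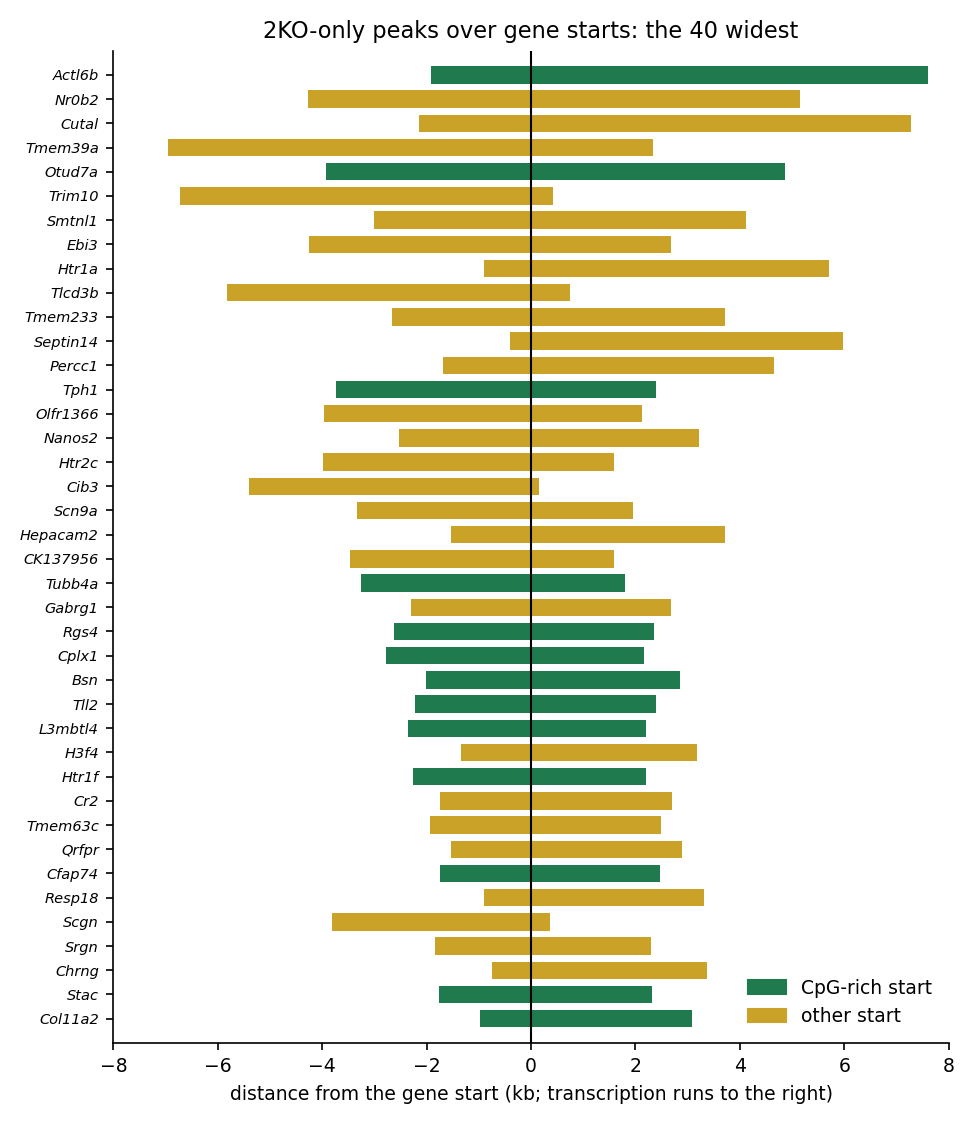
The 40 widest gene-start entries under 2KO-only peaks, drawn as bars from the first to the last base of the peak in kb from the gene start, with transcription to the right. Green marks CpG-rich and yellow other starts; Actl6b reaches 7.60 kb into the gene, and Tmem39a 6.95 kb upstream.

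A start under a 2KO-only peak belonged to 81 genes, which is 0.469% of the 17274 genes with an entry. CpG-rich were 28 of these 81 starts (34.6%, 25.1 to 45.4), beside 46.3% of all genes. For shared peaks the count was 367 of 723 (50.8%, 47.1 to 54.4) and for control-only peaks 334 of 532 (62.8%, 58.6 to 66.8). The median ratio of observed to expected CpG was 0.477 under 2KO-only, 0.619 under shared and 0.714 under control-only peaks, and 0.586 over all genes. The GC content did not show the same order against all genes, since its median was 56.3% both under 2KO-only peaks and over all genes. The difference from shared peaks depended on width. In the band of 4 to 8 kb 11 of 40 starts were CpG-rich (27.5%, 16.1 to 42.8) beside 159 of 330 (48.2%, 42.8 to 53.6), with intervals that adjoin without overlapping. In the band of 2 to 4 kb the shares were 15 of 31 (48.4%, 32.0 to 65.2) and 36 of 75 (48.0%, 37.1 to 59.1). Control-only peaks had 57.2% and 66.1% in the bands of 2 to 4 and 4 to 8 kb. Leaving out starts more than 1 kb inside a gene gave 35.4% (24.9 to 47.5), 51.8% and 64.5% for the 3 classes.

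Promoter motifs were counted in the same windows. The GC box GGGCGG, searched on both strands, stood in 39.5% of the windows under 2KO-only peaks (29.6 to 50.4), 55.9% under shared and 65.2% under control-only peaks, beside 46.9% of all promoter windows. The TATA-box letters TATAAA, also on both strands, stood in 13.6% (7.76 to 22.7), 9.82% and 7.33%, beside 13.4% of all windows. The GC box holds a CpG and so is not independent of CpG density. Percc1, Olfr1366 and Nanos2 had no CpG in the 300 bases at their start. Otud7a had 51 and Bsn, a presynaptic active zone gene, 38. The CpG-rich starts lay under peaks with a median width of 3820 bp and the others under peaks of 4124.5 bp.

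**Figure D3:**
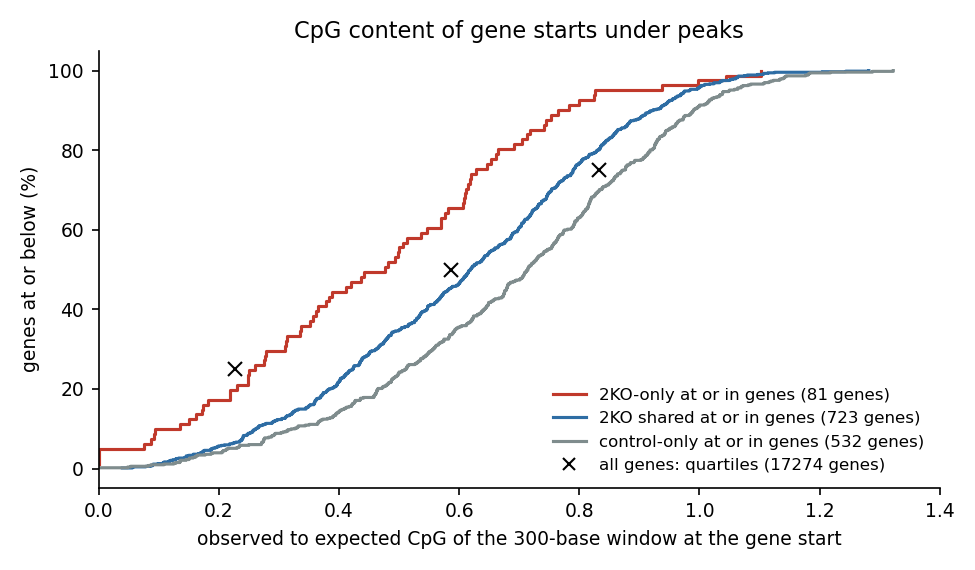
Cumulative share of genes (y axis, percent) by the ratio of observed to expected CpG in the 300-base window at the start (x axis), for genes whose start lay under a 2KO-only, shared or control-only peak. Crosses mark the quartiles of all 17274 genes; the 2KO-only curve has a median of 0.477, and the shared and control-only curves lie to its right at 0.619 and 0.714.

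The 284 peaks lay at 296 genes, 1.37% of 21631. The counts of gene families are read against that background. Of 53 receptor genes for monoamines, acetylcholine and adrenergic ligands, 8 had a 2KO-only peak (15.1%, 7.85 to 27.1), each a peak of its own, and 6 of these peaks covered the start. Htr1a, Htr2c, Htr3b, Htr1f, Htr5a and Htr7 encode serotonin receptors, Hrh2 the histamine H2 receptor and Chrng the fetal gamma subunit of the muscle acetylcholine receptor. Their widths were 6608 bp at Htr1a, 5574 bp at Htr2c, 4854 bp at Htr3b, 4473 bp at Htr1f, 4122 bp at Chrng, 3501 bp at Htr5a, 3212 bp at Hrh2 and 1327 bp at Htr7. Of these 8 genes, Htr7 alone also carried a control peak. In the family as a whole 25 of 53 genes did (47.2%).

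The serotonin genes were looked at further with a list made after these members had been seen, so its count is a description and no independent evidence. Of 17 receptor, synthesis and transporter genes, 8 had a 2KO-only peak: the 6 receptors above and both tryptophan hydroxylase genes, which encode the enzymes that start serotonin synthesis. Tph1, the form of non-neuronal tissue, had a peak of 6.12 kb (chr7:46664993-46671111) over a start, 265.0 kb from the nearest control peak. Tph2, the neuronal form, had a peak of 2.92 kb (chr10:115162259-115165173) inside the gene. The peaks at Htr1a (chr13:105442796-105449403), Htr1f (chr16:65103576-65108048) and Htr2c (chrX:146958523-146964096) lay 386.0, 1238 and 2266 kb from any control peak. Htr2a, Htr4 and Htr6 carried a control peak and a shared 2KO peak in place of a 2KO-only one, and Htr5b a control peak with no shared one. No peak of either list met Htr1b, Htr1d, Htr2b, Htr3a or Slc6a4, the serotonin transporter gene. The genes lay on many chromosomes, so their peaks were separate regions.

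Genes of transmitter release came next. Of 59 synaptotagmin and vesicle protein genes, 6 had a 2KO-only peak (10.2%, 4.74 to 20.5). These were Cplx1, a complexin gene (4930 bp, over the CpG-rich start), Vamp1, a synaptobrevin gene (4052 bp), Syn2, a synapsin gene (3042 bp), Stxbp5l (2872 bp), Syt15 (1985 bp) and Unc13a, a vesicle priming gene (1016 bp). The peak counted for Vamp1 lay 774 bp outside its gene body. This family had a median gene length of 47.3 kb, and from 30 to 100 kb 1.62% of all genes had a 2KO-only peak. Among the receptors for fast transmission, 2 of 27 glutamate receptor genes had a 2KO-only peak (7.41%, 2.06 to 23.4). They were Gria1 (4629 bp) and Gria4 (3317 bp), AMPA receptor subunit genes. Gabrd (6366 bp) and Gabrg1 (4979 bp) were 2 of 26 for GABA and glycine (7.69%, 2.14 to 24.1). These 4 genes carried no control peak, which is a description, since the rule chose peaks without control overlap. A control peak was carried by 20 of 27 genes of the glutamate family and 7 of 26 of the GABA and glycine family. The glutamate family had a median gene length of 277.8 kb, and from 100 to 300 kb 2.73% of all genes had a 2KO-only peak. In a list of 20 synaptic scaffold genes that was also made after the members had been seen, 6 had a 2KO-only peak. These were Lzts3, Bsn, Shank2, Dlgap1, Dlg2 and Dlg4. Shank2, Dlgap1 and Dlg2 each also carried 2 control peaks and 2 shared 2KO peaks, and 10 of the 20 genes carried a control peak. Those named genes with control peaks are longer than 300 kb, a length at which 5.21% of all genes had a 2KO-only peak. The peaks of Bsn (chr9:108187528-108192391) and Dlg4 (chr11:70021966-70025186), which encodes the postsynaptic protein PSD-95, covered a start. The Dlg4 start lay 6779 bp inside the gene as annotated.

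Ion channel genes showed a smaller share. Of 91 sodium, calcium and other cation channel genes, 5 had a 2KO-only peak (5.49%, 2.37 to 12.2), with 8 peaks in all. Asic2, which encodes an acid-sensing channel and spans 1088234 bp, held 4 of these peaks, the widest of 5486 bp. Asic2 also carried 1 control peak. Scn9a, the gene of a sodium channel of pain-sensing neurons, had a peak of 5296 bp over its start. Cacna1a and Cacna1c, calcium channel genes, had peaks of 3874 and 3395 bp and carried control peaks elsewhere. The peak counted for Hcn3, of 2900 bp, lay in the gene Pklr and met Hcn3 only through its 1 kb margin. The cation channel family had a median gene length of 62.05 kb, beside 17.3 kb over all genes. Kcnj6, Kcnv1 and Kcnmb3 were 3 of 94 potassium channel genes with one (3.19%, 1.09 to 8.97), an interval that includes the background. The cadherin family appeared with 14 of 115 genes, but these rested on 2 peaks: one of 7003 bp in Cdh22 and one of 4113 bp that lies in the overlapping transcripts of the clustered Pcdha genes. Cdh22 also carried 5 control peaks, and these Pcdha genes 1 each.

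Shares for families of developmental transcription factors lay close to the background or had intervals that include it. None of 84 Fox, Sox, Tbx and Gata factor genes had such a peak (upper bound 4.37%), while 52 of them carried a control peak (61.9%). Of 154 homeobox genes 2 had one (1.30%, 0.357 to 4.61): Pou2f2 and Pax5, both factors of B cells. A control peak was carried by 119 of the 154 (77.3%), among them Pou2f2 and Pax5 with 2 each. The rule removes any peak that touches a control peak, so a family under control peaks has less room for 2KO-only ones. Of 73 genes taken by symbol as helix-loop-helix factors 2 had one (2.74%, 0.755 to 9.45), Neurod6 (4816 bp, at the 3′ end) and Ebf2 (2936 bp). Ebf2 also carried 3 control peaks. Nuclear receptors had 3 of 50 (6.00%, 2.06 to 16.2), above the background: Nr0b2 (9427 bp), Rxrb (4058 bp) and Pparg (1484 bp). The Rxrb peak covered the start of Col11a2 and only 246 bp of Rxrb, and Pparg also carried a control peak. The family had a median gene length of 46.8 kb, beside 17.3 kb over all genes. Zinc finger genes had 8 of 523 (1.53%, 0.777 to 2.99), a share near the background. Genes taken by symbol for the Wnt, Bmp, Tgf-beta, Fgf and Hedgehog families had 2 of 134, Fgf6 (6031 bp) and Fgf12 (3553 bp). Fgf12 also carried 2 control peaks.

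Lists of skin genes were too short to be set apart from the background. No 2KO-only peak met the 22 basal progenitor genes, the 33 epidermal differentiation genes, the 109 keratin and keratin-associated genes (upper bound 3.40%) or the 25 hair follicle genes, of which 13 carried a control peak. Of 20 Merkel cell genes 1 had one, Stmn2, a stathmin gene also expressed by neurons (4272 bp, 151.8 kb from a control peak). The lists for other cells that a sort could hold had 0 of 15 dermal fibroblast, 0 of 11 melanocyte, 0 of 10 endothelial and 0 of 14 immune genes with one. Polycomb subunit genes (0 of 32), cyclin-dependent kinase inhibitors (0 of 7), imprinted genes (0 of 20) and housekeeping genes (0 of 20) had none. The intervals of all these lists and families include 1.37%, with an upper bound of 14.9% for the 22 basal progenitor genes. Among 19 chromatin remodelling and demethylase genes Actl6b was the only one.

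**Figure D4:**
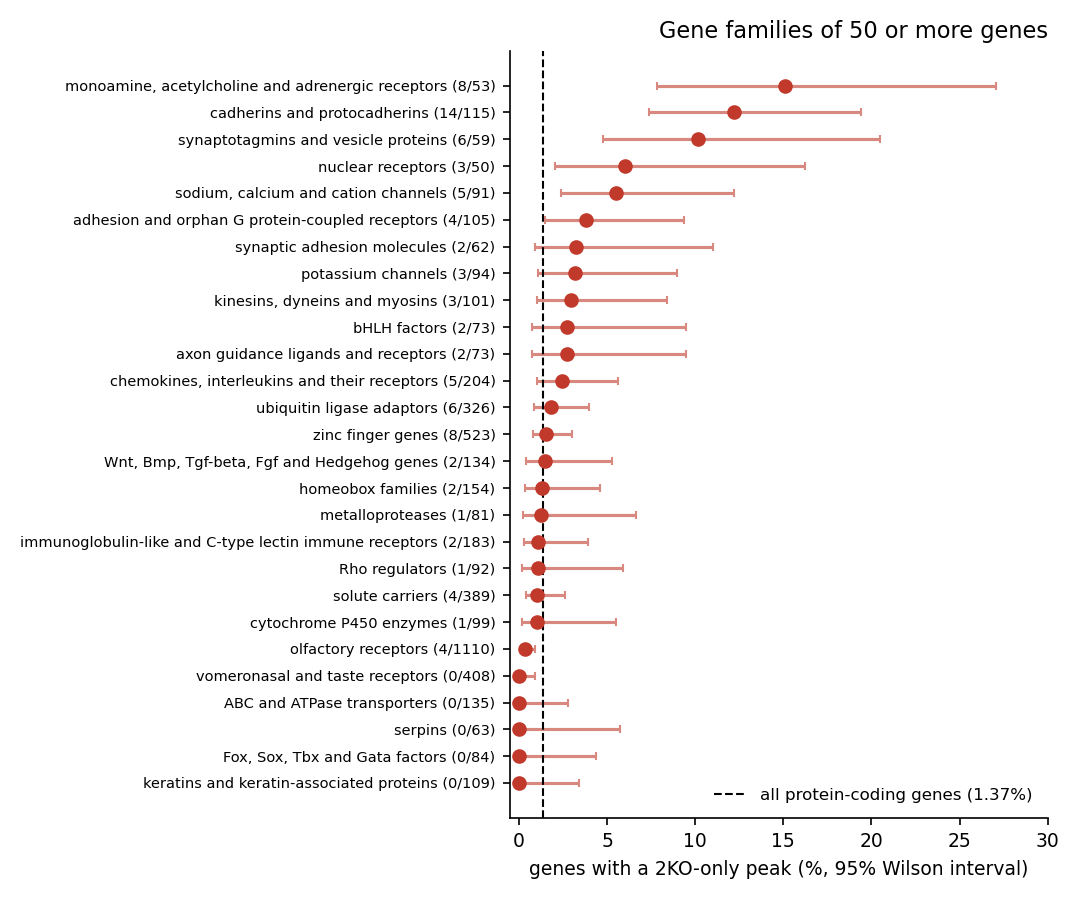
Percent of the genes of each family of 50 or more genes that had a 2KO-only peak (x axis, with 95% Wilson intervals), the dashed line marking 1.37% of all protein-coding genes. Monoamine and acetylcholine receptors lie at 15.1% and vesicle proteins at 10.2%; the cadherin value of 12.2% rests on 2 peaks, and Fox, Sox, Tbx and Gata factors lie at 0%.

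Immune and sensory families were near or under the background. Chemokine, interleukin and receptor genes had 5 of 204 (2.45%, 1.05 to 5.61), Tnfsf13b (4442 bp), Tnfrsf1b (3438 bp), Il12rb2 (2877 bp) and the interferon genes Ifna7 and Ifna11, which shared a peak of 4253 bp. The interferon peak covered Ifna7 whole and met Ifna11 only through its 1 kb margin. H2-Eb1, a class II antigen presentation gene, had a peak of 5949 bp beyond its 3′ end, 283 bp outside the gene body. Olfactory receptor genes had 4 of 1110 (0.360%, 0.140 to 0.923), Olfr1366, Olfr463, Olfr63 and Olfr1416, with widths of 6096, 5539, 5036 and 4436 bp. Of these, only Olfr1366 lay under its peak. Those of Olfr463, Olfr63 and Olfr1416 lay 311, 334 and 223 bp outside the gene body. Of 408 vomeronasal and taste receptor genes, none had one (upper bound 0.933%). Olfactory receptor genes are short, with a median of 0.95 kb, and 4 of 1110 also carried a control peak.

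Germline genes recurred among the widest peaks and among the genes with several peaks. A list of 60 genes of germ cells and meiosis was built partly from these members, so its count of 12 is a description without an interval. Nanos2, an RNA-binding regulator of male germ cells, lay whole under a peak of 5.75 kb (chr7:18984986-18990737). H3f4, a histone gene of testis, lay whole under one of 4.52 kb (chr11:58960373-58964894). Akap3, an anchoring protein of the sperm tail, had one of 7.12 kb inside the gene (chr6:126854813-126861935). The others were Cct6b, Rad21l, Tdrkh, Septin14, Fkbp6, Zan, Wee2, Zfp541 and Topaz1. None of the 12 carried a control peak, beside 5 of 60 genes in the whole list. Over all genes that share was 11.7%, and over the 296 genes with a 2KO-only peak 26.4%. The rule chose peaks without control overlap, and the list was built partly from these members. The absence of control peaks at the 12 is therefore partly set in advance and is a description only. Tdrkh also had a shared 2KO peak. The peak at Nanos2 lay 0.83 kb from a control peak, whereas that of Wee2 nearest to one lay 561.2 kb away.

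Several peaks in a row marked a few genes. Of the 296 genes, 21 had 2 or more 2KO-only peaks. Septin14 had 3, which spanned 27.4 kb, of which 21.5 kb lay under the peaks, and 72.6% of the gene was covered. Wee2, which encodes an oocyte kinase that holds meiosis, had 3 over 26.3 kb, covering 39.1% of the gene. Tlcd3b, a ceramide synthesis gene of the retina, had 3 over 15.9 kb, covering 53.7%. Myh14, a nonmuscle myosin gene, had 3 over 34.0 kb, covering 14.6% of the gene. None of these 4 spans held a control peak or another 2KO peak. Outside its span, Myh14 also carried 1 control peak, and it had 4 2KO peaks in all. Cutal had 2 peaks that covered 62.2% of the gene, and the nearest control peak lay 1097 kb away. Cpb2, a carboxypeptidase gene of fibrinolysis, had 2 that covered 24.0%. In the long genes Otud7a, Dlg2 and Dcdc5, 2 peaks each covered 1.84, 0.339 and 2.13% of the gene. Over the whole set, 42 peaks (14.8%, 11.1 to 19.4) lay within 50 kb of another one, in 19 groups, and 4 groups had 3 peaks.

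Most of the peaks lay farther than 50 kb from any control peak. The distance to the nearest one had a median of 135.8 kb and quartiles of 37.6 and 357.4 kb. Within 50 kb lay 83 of the 284 (29.2%, 24.2 to 34.8), beside 102 of 264 2KO-only peaks between genes (38.6%, 33.0 to 44.6). Those between genes had a median distance of 93.4 kb, and the intervals of the 2 shares met. The most distant peak lay beside Tasor2 (808 bp wide, 6742 kb away). Next came those over the starts of Pomc, the hormone precursor gene (3755 bp, 4338 kb), and Gria4 (3317 bp, 3746 kb). Tasor2 and Pomc were named after their values were seen. All of these peaks lay near the start of the chromosome's numbering (chr13:3613600, chr12:3952544 and chr9:4793208). Little room was left before them for a control peak. In the plot of width against distance, peaks of 4 to 6 kb occur at distances from 0.83 kb at Nanos2 to 3372 kb at Slitrk4, a gene of a neuronal adhesion protein. To another 2KO peak of any kind the median distance was 108.5 kb.

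**Figure D5:**
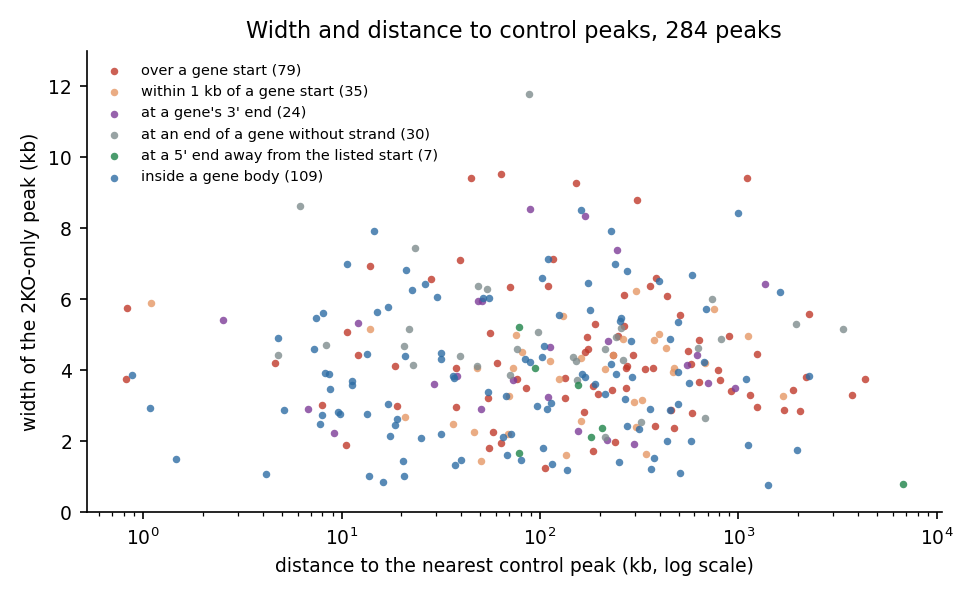
Width of each of the 284 peaks (y axis, kb) against its distance to the nearest control peak (x axis, kb, log scale), coloured by position at the gene. The quartiles of the distance are 37.6 and 357.4 kb, and the widest peak, at Zbtb40 (11.8 kb), lies 87.9 kb from a control peak.

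Long genes held more of the peaks and more of the control peaks. Genes with a 2KO-only peak had a median length of 37.5 kb (quartiles 14.0 and 108.6 kb), beside 17.3 kb over all genes. The share of genes with a peak was 0.698% under 10 kb, 1.25% from 10 to 30 kb, 1.62% from 30 to 100 kb, 2.73% from 100 to 300 kb and 5.21% (3.65 to 7.38) over 300 kb. A longer body meets a peak more easily by its length alone. Of the 296 genes, 78 also carried a control peak at another place (26.4%, 21.7 to 31.6), beside 11.7% of all genes, and 55 carried a shared 2KO peak. By length the order was not uniform. Under 10 kb none of 54 genes with a 2KO-only peak had a control peak (upper bound 6.64%), beside 8.29% of all genes of that length. From 100 to 300 kb 28 of 51 did (54.9%, 41.4 to 67.7), beside 23.5%. Over 300 kb 19 of 29 did (65.5%, 47.3 to 80.1), beside 50.3%. In a short gene a control peak and a 2KO-only peak can hardly both be met without touching, so the rule itself limits the first of these counts. A single 2KO-only peak of 4113 bp met 16 overlapping genes at the Pcdha cluster, each of which also carried a control peak. They are counted separately in the 78 and in the length classes, most of them from 100 to 300 kb. These genes are not independent, so the intervals there are too narrow.

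The peaks were spread unevenly over chromosomes. Per 100 Mb of gene bodies with their margins there were 26.7 over the genome, 55.1 on chromosome 7 (34 peaks), 54.7 on chromosome 11 (32 peaks) and 42.3 on chromosome 17 (17 peaks), but 9.11 on chromosome 10 (5 peaks) and 4.22 on the X chromosome (2 peaks, at Htr2c and Slitrk4). As a share of all 2KO peaks of the chromosome they were 12.1% over the genome, 17.3% on chromosome 7, 17.1% on chromosome 11, 17.9% on chromosome 17, 21.6% on chromosome 16 and 5.43% on chromosome 10. Long noncoding RNA genes were overlapped by 30 of the 284 (10.6%, 7.50 to 14.7), compared with 340 of 1434 shared peaks at genes (23.7%, 21.6 to 26.0). This difference was not compared within bands of width.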

How the data were processed

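H3K27me3 ChIP-seq was analysed for control and Ring1a/b 2KO epidermal progenitors, grouped by the sample titles. The submitters' processing notes name Bowtie2 2.3.3.1, SAMtools 1.9 and build mm10. For each genotype the authors deposited a single list of peak positions, with no signal, score, fold or p-value column. Caller, threshold, use of input and pooling of libraries were not stated in the labels or file headers. Depth is unknown, and a shallower library or stricter threshold in control cells would also leave 2KO peaks without a counterpart, which cannot be told apart from a change in the mark. Positions are printed 1-based, the deposited starts being taken as 0-based.

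Python 3.11.15 with numpy 2.4.6, pandas 2.3.3 and scipy 1.17.1 gave the overlaps (at least 1 bp), distances, medians and Wilson intervals. Figures were drawn with matplotlib 3.10.9. The interval of the median width came from binomial order statistics. The overlap code was tested on simulated intervals. Gene bodies of 21631 protein-coding genes came from RefSeq GRCm38.p6; strand and start came from its promoter table. Members and gene lists were chosen with earlier results of these data known, and the serotonin, scaffold and germline lists were added after the members had been seen. The bands of width for CpG content and the restriction to starts near the gene's 5′ end were also chosen after the data were seen. Of 251 symbols in 13 lists, 3 were missing from the gene table, and 34 families were taken by symbol. Named were genes at the 25 widest peaks and at the 20 widest over starts, genes with 2 or more peaks, up to 4 genes per list or family, the widest first, the 5 peaks on each side of every limit, and markers; some genes that this rule names are not reported here. In families with more than 4 such genes the rest are named to complete the count, and further genes named only after their values were seen are Chrng, Hrh2, Htr5a and Htr7, Percc1, Bsn, Nlrp12 with its microRNA genes, the genes of the added lists, the genes wholly covered, Slitrk4 and those so marked in the text. Alternatives covered the overlap, gene margin, peak width, merging, chromosomes, predicted genes, distances and CpG limits.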

Additional observations from a re-analysis of the deposited data

How the results depend on the processing

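No paired analysis was possible because the libraries of a genotype came as a single list of peaks, which also left no replicate to omit. Of 33 reruns, 21 stayed within the counting interval or within 1.5 times the count and 12 moved. The share of 2KO-only peaks at or in genes (51.8%) became 45.6% with no gene margin, 70.6% with 5 kb and 57.3% with peaks of at least the median 2KO width of 5507 bp. That last restriction left 59 of the 284 peaks, with a median width of 6436 bp, as its construction requires. With a margin of 5 kb the number of genes rose from 296 to 467. The share at gene ends (56.0%) was 39.1% with a window of 0 and 68.7% with 5 kb, and the share inside bodies (44.0%) was 48.9% and 31.3%. Near a control peak lay 9.51% at 10 kb and 43.0% at 100 kb, in place of 29.2% at 50 kb. Under stricter CpG limits (a ratio of 0.75 and a GC content of 55%) 12.3% of the starts were CpG-rich in place of 34.6%, beside 30.4% of all genes. These moves follow from the wider or narrower definitions. Requiring 10% overlap, removing peaks within 5 kb of control, merging within 3 kb, autosomes alone and leaving out predicted genes gave 273 to 285 peaks. Unknown depth limits every absence: a region not called in control cells may lie just under the threshold.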
